A study of Mus musculus and Acomys cahirinus with 16 samples.

Results

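The samples described here are skin of Acomys cahirinus, the African spiny mouse, either treated with DMBA and TPA or left untreated. The 8 samples were chosen by their labels, 4 treated and 4 untreated, out of 16 skin samples in the series. The other samples are skin of the laboratory mouse in the same 2 conditions and were used here only to test whether the change differed between species.

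DMBA is a polycyclic hydrocarbon that skin enzymes convert to DNA-damaging metabolites, and it is used to initiate skin tumours. TPA is a phorbol ester that activates protein kinase C, and repeated doses promote the outgrowth of initiated keratinocytes, with inflammation and thickening of the epidermis. In resting epidermis, basal keratinocytes divide and carry keratins 5 and 14, and the layers above them switch to keratins 1 and 10 and then build the cornified envelope. In wounded or hyperplastic skin the same cells make keratins 6, 16 and 17 and alarmin proteins of the S100 family.

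Polyadenylated RNA was purified from skin with a column kit and made into stranded libraries, and the deposited values are counts of read pairs per gene in a spiny mouse assembly. Strain, age, sex, body site, doses, schedule and time of collection are not given in the sources used here, nor is whether the treated skin held tumours. The labels number the samples of each group 1 to 4 without saying that each came from its own animal, so all p-values measure only the spread between these samples. Counts per sample totalled 21143918 to 30561256 read pairs, at which 3 read pairs correspond to 0.102 to 0.137 CPM (the count scaled by the effective library size). The first principal component carried 67.7% of the variance and separated the treated from the untreated samples. The second carried 16.1% and split both groups, with opposite sides for the same replicate numbers. Untreated replicates 1 and 2 lay on the side of treated replicates 3 and 4. Untreated replicates 3 and 4 lay on the side of treated replicates 1 and 2. The skin label held in every sample, with untreated means of 2044 FPKM (fragments per kilobase of exon, scaled to library size) for Krt5 and 1314 for Krt14, the basal keratin pair. Skeletal muscle transcripts were also present, since Atp2a1, the calcium pump of fast muscle, reached 2377 FPKM in untreated skin (its exons overlap those of Rabep2).

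Between the groups, 4183 of 14833 tested genes were higher in treated skin (28.2%) and 3997 were lower (26.9%), at an adjusted p under 0.05 in edgeR's quasi-likelihood test with Benjamini-Hochberg adjustment, which gave every adjusted p below. For 50.9% of the genes, all 4 treated samples lay on the same side of all 4 untreated samples. With a log2 fold change of at least 1 in either direction required as well, 1000 were higher (6.74%) and 1226 lower (8.27%). In all 55.1% of the tested genes were called, and the count within any gene list has to be read against that share. Of 670 listed genes that are in the table, 612 passed the filter on low counts and were tested. In 12 of the 40 lists the shares higher and lower both lay within 15 percentage points of the shares over all genes, so their counts are no result about the list: the epithelial keratins, barrier lipid enzymes, IL-1 family, p53 targets, Ras and AP-1, xenobiotic and NRF2 genes, collagens, TGF-beta genes, and the markers of fibroblasts, endothelium and dendritic cells. The median log2 fold change over all tested genes was -0.01. In what follows "rose" and "fell" are used of called genes, levels are CPM on effective library sizes, and means are given ± SD with n = 4 per group.

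**Figure D1:**
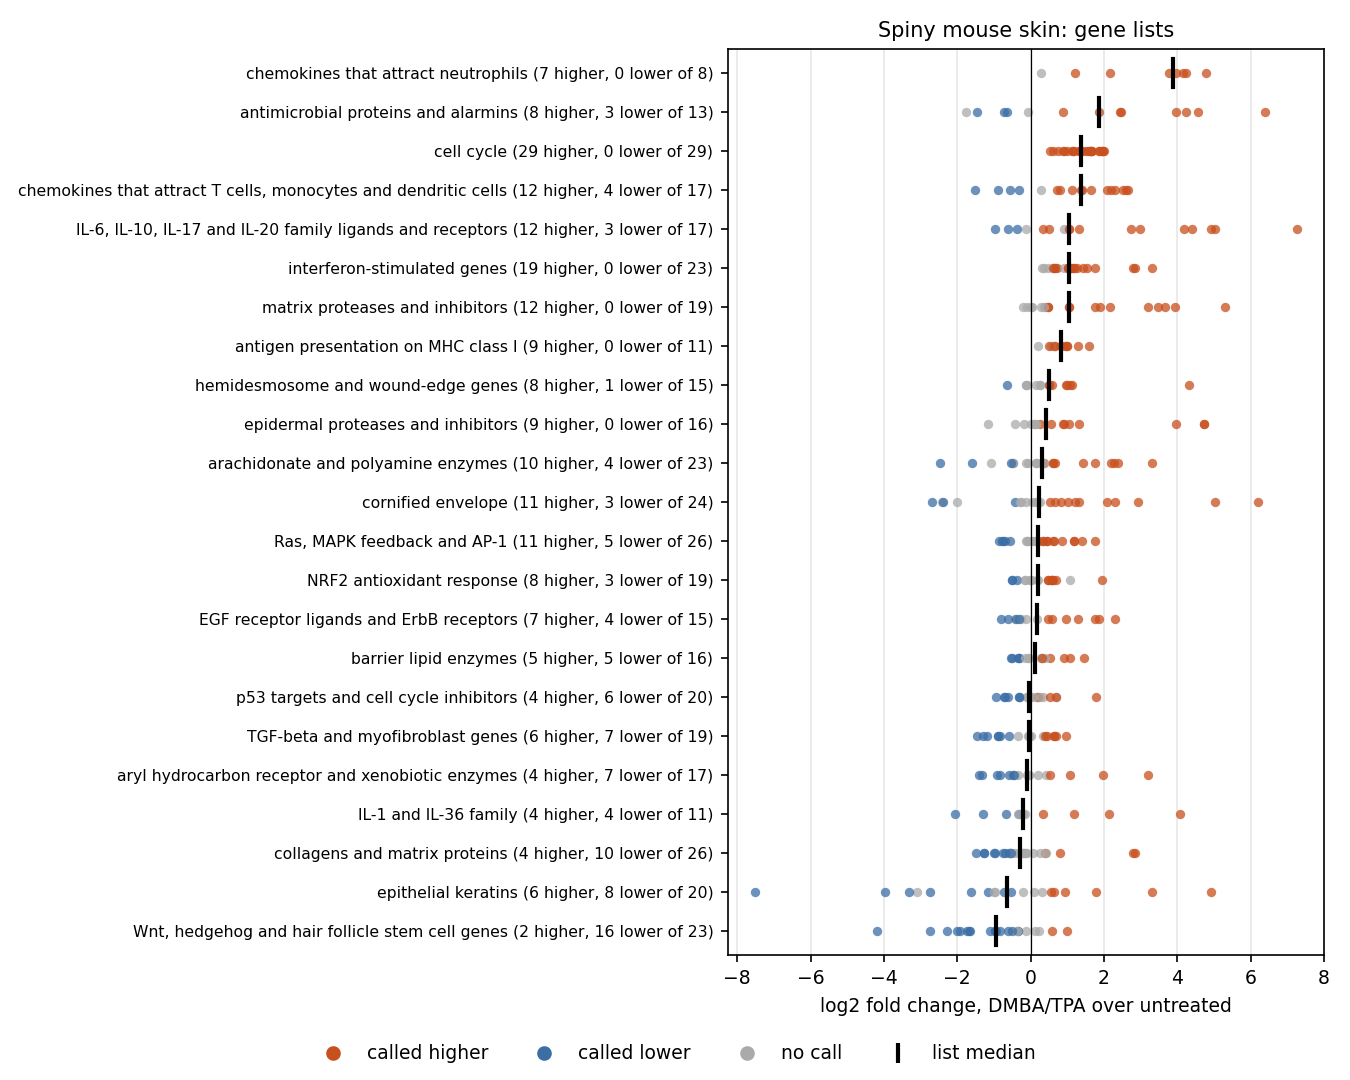
Log2 fold change of treated over untreated skin (horizontal axis) for each tested gene of the 23 pathway lists (1 point per gene, coloured by call). Each list's median is a black bar, and the cell type marker lists are not drawn. Chemokines that attract neutrophils and antimicrobial proteins and alarmins have the highest medians drawn, 3.88 and 1.86. The list of Wnt, hedgehog and hair follicle stem cell genes has the lowest, -0.95.

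Among genes of at least moderate level whose groups did not overlap, the largest rises included epidermal alarmins, cytokines and interferon-inducible GTPases. Il24, an interleukin of the IL-20 subfamily, was at 0.476, 0.198, 0.340 and 0.137 CPM in the untreated samples. In the treated samples it was at 36.4, 54.4, 36.4 and 60.3 CPM, a rise of 7.27 on the log2 scale (SE 0.32, adjusted p = 3.54e-06). With only 32 read pairs in all untreated samples, the size of this fold change is unreliable. S100a9, a subunit of calprotectin, read 9.66, 3.81, 9.7 and 7.36 CPM without treatment and 618, 703, 647 and 629 CPM with it, 84.8-fold higher (adjusted p = 3.54e-06). Both genes were near the bottom of their range in all 4 untreated samples and high in all 4 treated ones, a separation that their selection required. Fgf23, a hormone of phosphate balance made mainly in bone, went from 0.510, 0.952, 0.851 and 0.274 to 16.1, 24.2, 15.4 and 58.2 CPM, a log2 fold change of 5.43 (adjusted p = 8.05e-05). Its treated samples spanned a wide range, and without treated replicate 4 the log2 fold change was 4.83. Uox, the urate oxidase that is best known from liver, had 1.02, 0.912, 1.23 and 1.51 CPM untreated and 51.3, 97.2, 39.5 and 106 CPM treated (log2 fold change 5.98, adjusted p = 1.05e-05). Cdhr1, a photoreceptor cadherin, had 1.8, 0.754, 3.47 and 1.97 CPM in the untreated and 311, 273, 272 and 227 CPM in the treated samples (log2 fold change 7.06, adjusted p = 5.26e-06). Fgf23, Uox and Cdhr1 are better known from other tissues than from skin. For each, all 4 treated samples exceeded all 4 untreated samples, which their selection required.

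Genes of large interferon-inducible families were among the same 12 rises. F830016B08Rik (scaffold 3, bases 27524517 to 27534031) and Gm4841 (scaffold 3, bases 27463438 to 27465099) are annotated close together on 1 scaffold of the AcoCah2 assembly. F830016B08Rik read 2.82, 3.37, 1.6 and 0.686 CPM untreated and 32.5, 539, 657 and 236 CPM treated. Gm4841 read 0.340, 0.873, 0.545 and 0.229 CPM untreated and 5.32, 86, 107 and 31.8 CPM treated. Gvin3, a very large GTPase annotated on scaffold 12, read 4.01, 3.49, 3.57 and 3.93 CPM untreated and 7.19, 214, 219 and 81.1 CPM treated. For all 3, treated replicate 1 was the lowest treated sample and replicate 3 the highest. These families hold near-identical copies, so the assignment of reads between members is uncertain, and the same holds for Sprr2k. Sprr2k read 0.272, 0.0793, 0.477 and 0.137 CPM untreated and 13.3, 27.8, 22.5 and 11.5 CPM treated. Its log2 fold change was 6.19 (adjusted p = 1.99e-05), but 27 read pairs in all untreated samples are too few for a reliable fold change. The remaining rises among the 12, Mmp13, Osm and Krt6a, are given with their groups.

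The largest fall was that of Krt2, the keratin of upper spinous and granular layers in ridged and tail skin. Krt2 read 5.07, 171, 69.3 and 62.1 CPM in the untreated samples and 0.364, 0.143, 0.549 and 0.640 CPM in the treated samples, 182-fold lower (log2 fold change -7.51, SE 1.08, adjusted p = 0.00042). The untreated samples differed widely among themselves, and each exceeded every treated sample, which the selection of the gene required. Without untreated replicate 2 the log2 fold change was -6.75, and limma-voom gave an adjusted p of 0.0716. With only 41 read pairs in all treated samples, the size of this fall is unreliable. Lce1m, a late cornified envelope protein of a family with near-identical copies, fell from 518 ± 76.8 to 20.7 ± 11.5 CPM (log2 fold change -4.64, adjusted p = 3.76e-05). Fcgbp, a mucin-like secreted protein, fell from 289 ± 177 to 16 ± 8.71 CPM (log2 fold change -4.18, adjusted p = 0.000307).

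Other large falls lay in an ion exchanger, a guidance cue and growth factor regulators. Slc9a3, a sodium-proton exchanger, read 19.5, 13.2, 25.4 and 22.6 CPM untreated and 0.455, 1.61, 1.9 and 0.548 CPM treated (log2 fold change -4.11, adjusted p = 6.58e-05). Sema3d, a secreted semaphorin, read 234, 194, 357 and 247 CPM untreated and 12.3, 20.3, 19.4 and 11.5 CPM treated (log2 fold change -4.02, adjusted p = 1.05e-05). Igfbp3, which binds insulin-like growth factors, fell from 549 ± 176 to 87.2 ± 31.3 CPM (6.29-fold, adjusted p = 0.000147), and Igfl3, an insulin growth factor-like protein, fell 9.1-fold (adjusted p = 0.000154). No treated sample reached any untreated sample for these genes, which their selection required. Serpinb13, a protease inhibitor of squamous epithelium, fell by 3.82 on the log2 scale (adjusted p = 0.000786) with treated values of 1.14, 2.47, 11.1 and 1.78 CPM, and without treated replicate 3 the log2 fold change was -5.02. Sarm1, an NAD-consuming enzyme of axon degeneration, and H2-M5, a non-classical MHC class I gene, fell 6.51-fold (adjusted p = 0.000209) and 7.13-fold (adjusted p = 2.84e-05). In bulk skin, fewer cells of a type and less RNA per cell cannot be told apart for these genes or for any group below.

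**Figure D2:**
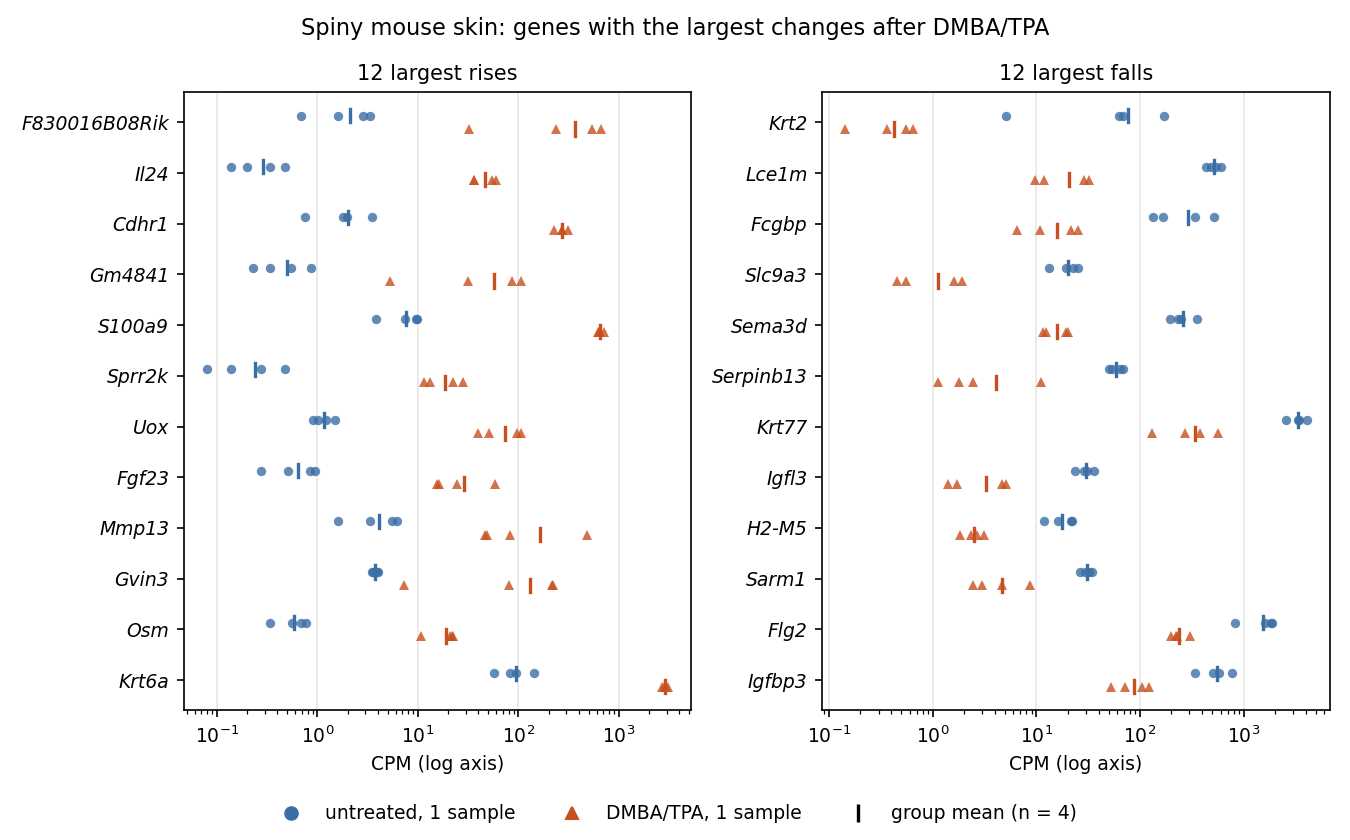
CPM (log axis) of the 12 largest rises and the 12 largest falls, with untreated samples as blue circles, treated samples as orange triangles and group means (n = 4) as bars. The groups do not overlap for any of the 24 genes, which their selection required. Genes with a wide spread within 1 group include F830016B08Rik, Gm4841, Gvin3 and Mmp13 among the rises and Krt2 and Serpinb13 among the falls.

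Per length, the most abundant transcripts of treated skin included Krt14 at 4520.1 FPKM, S100a8 at 4279, Krt5 at 3949.8, Lgals7 at 3388, Actb at 3345 and Fabp5 at 2971. In untreated skin the corresponding means were 1314, 182, 2044, 1203, 1963 and 863 FPKM. Lgals7, a galectin of stratified epithelia, rose 2.82-fold (adjusted p = 8.59e-05), Fabp5, the fatty acid binding protein of epidermis, rose 3.44-fold (adjusted p = 6.5e-05), and Actb, the cytoskeletal actin, rose 1.7-fold (adjusted p = 3e-04). The housekeeping transcripts Eef1a1, Rplp1 and Rpl41 were not called, with log2 fold changes of -0.06, 0.08 and 0.17. Untreated skin had Acta1, the actin of skeletal muscle, at 3211 FPKM and the hair keratin-associated genes Krtap15 and Krtap1-5 at 2356 and 2024 FPKM. The hair genes Krtap15 and Krtap1-5 had log2 fold changes of -2.80 and -3.35 without being called, and their untreated means rested mainly on replicates 1 and 2. Krtap15 read 4581, 2823, 90.7 and 224 CPM untreated and 16.5, 15.7, 875 and 197 CPM treated. Krtap1-5 read 5483, 3432, 60.4 and 109 CPM untreated and 14.2, 7.22, 716 and 153 CPM treated. Mitochondrial genes were represented by COX1 and COX2, of which COX1 fell by 0.59 on the log2 scale (adjusted p = 0.0117), and the COX1 entry covers only part of the gene.

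Keratins of the basal layer and of hyperplastic epidermis rose while Krt2, Krt15 and Krt77 fell. Of 20 tested epithelial keratins, 6 rose and 8 fell, with a median log2 fold change of -0.63. The basal keratins rose, Krt5 from 4437, 4178, 4756 and 4408 to 10128, 8329, 8192 and 7714 CPM (1.93-fold, adjusted p = 0.000202) and Krt14 from 2263, 2207, 2304 and 2212 to 8214, 7859, 8012 and 6833 CPM (3.44-fold, adjusted p = 8.16e-06). Both moved in the same direction by different amounts, while Krt15, the basal keratin that is high in the hair follicle bulge, fell from 798, 704, 1208 and 808 to 271, 279.8, 297 and 285 CPM (log2 fold change -1.64, adjusted p = 5.99e-05). The spinous keratin Krt1 rose from 2162 ± 362 to 3385 ± 799 CPM (adjusted p = 0.0161), and its partner Krt10 was at 5231 ± 687 and 6442 ± 1279 CPM without being called (adjusted p = 0.148).

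Among the keratins of hyperplastic and wounded epidermis, Krt6a read 141, 95.3, 83.3 and 57.8 CPM in untreated and 3099.9, 2791, 2918 and 2671 CPM in treated skin, 30.4-fold higher (log2 fold change 4.93, SE 0.27, adjusted p = 6.95e-06). Its partner Krt16 read 372, 342, 79 and 60.01 CPM untreated and 2227, 2056, 2481 and 1784 CPM treated, 10.02-fold higher (adjusted p = 0.00129). All treated samples lay above all untreated samples for both, which for Krt6a its selection among the 12 largest rises required. Krt6b is not in the table, and reads from near-identical type II keratins could be shared with Krt6a. Krt17, which is also made in resting hair follicles, rose by less, from 1341 ± 300.4 to 1982 ± 314 CPM (log2 fold change 0.56, adjusted p = 0.0223). That call for Krt17 was lost without untreated replicate 3 (adjusted p = 0.0529), untreated replicate 4 (0.0621) or treated replicate 3 (0.058). Krt77, a keratin of interfollicular and sweat duct epithelium, fell 9.92-fold (adjusted p = 0.000174), and Krt13, a keratin of internal stratified epithelia, fell from 12.2 ± 2.31 to 0.767 ± 0.0823 CPM (adjusted p = 3.54e-06).

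Genes of the cornified envelope, the protein shell of the outermost keratinocytes, did not change as a block. Of 24 tested members 11 rose and 3 fell, with a median of 0.23, and without treated replicate 3, 5 fell. The list holds no late cornified envelope gene, so the fall of Lce1m is not counted in it. Flg, which encodes the filaggrin precursor, read 479, 171, 324 and 274 CPM untreated and 1641, 1924, 1182 and 1376 CPM treated (4.91-fold, adjusted p = 0.000233). Its relative Flg2 read 1894, 832, 1843 and 1625 CPM untreated and 230.0, 306, 221 and 199.8 CPM treated, 6.48-fold lower (adjusted p = 5.94e-05), and Lor, the main protein of the envelope, read 880.1, 493, 1089.7 and 732 CPM untreated and 107, 274, 136 and 91.7 CPM treated, 5.25-fold lower (adjusted p = 0.000671). Filaggrin and loricrin transcripts thus moved in opposite directions, with no overlap between groups for Flg, Lor or Flg2, whose selection required it. Hrnr, another member of the fused S100 family, was at 1742 ± 274 and 1447 ± 261 CPM and was not called (adjusted p = 0.182).

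Small proline-rich proteins, which cross-link into the envelope under stress, and repetin were among those that rose. Sprr1b read 69.98, 41, 46.3 and 35.3 CPM in the untreated and 397, 483, 296 and 303 CPM in the treated samples (7.67-fold, adjusted p = 2.91e-05). Rptn rose from 65.4 ± 38.2 to 279 ± 56.8 CPM (adjusted p = 0.00123). Sprr3, a member made mainly in internal epithelia, was at 0.0680 to 0.272 CPM untreated and 3.66 to 5.43 CPM treated (adjusted p = 1.54e-05), from 14 read pairs in all untreated and 446 in all treated samples, too few untreated pairs for a reliable fold change. Listed at 0 in all 8 samples were Sprr2d and Sprr2b, and the exons of Sprr2b overlap those of Sprr2a2 and Sprr2a3.

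Enzymes that make the lipids of the barrier had 5 of 16 higher and 5 lower, near the shares over all genes, and a median of 0.12. Cers3, the ceramide synthase for very long acyl chains, rose 2.74-fold (adjusted p = 0.000101), and Ugcg, which glucosylates ceramide, rose 2.09-fold (adjusted p = 0.000427). Elovl4, which makes the ultra-long fatty acids, was at 2972 ± 859.8 and 2816 ± 77.1 CPM and was not called (adjusted p = 0.74). The falls were less stable: Fa2h, a fatty acid hydroxylase shared with sebaceous glands, fell 1.45-fold (adjusted p = 0.0249) but lost its call without untreated replicate 3 (0.0549), untreated replicate 4 (0.0633), treated replicate 1 (0.0629) or treated replicate 2 (0.0591). The number of these enzymes that fell came to 2 without untreated replicate 1, 0 without untreated replicate 4, and 1 without untreated replicate 3 or treated replicate 1, 3 or 4.

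Epidermal proteases and protease inhibitors, among them the kallikreins that control shedding of cornified cells, had 9 members higher of 16 tested and 0 lower, with a median of 0.41. The list does not hold Serpinb13, a protease inhibitor that was among the largest falls. Klk6 read 84.4, 55.2, 62.5 and 53.9 CPM in untreated and 1927, 1899, 1204 and 1738 CPM in treated skin, 26.4-fold higher (log2 fold change 4.72, SE 0.22, adjusted p = 3.54e-06). Klk13 read 23.6, 15, 19.2 and 14.8 CPM untreated and 559, 549.8, 297 and 511 CPM treated, 26.4-fold higher (adjusted p = 6.32e-06). Klk7, the desquamation protease that is already abundant in resting skin, rose from 587 ± 129.8 to 1457 ± 219 CPM (adjusted p = 0.000295). Among the inhibitors, Slpi, which blocks leukocyte elastase, rose from 26.3, 19.2, 22.7 and 23.9 to 377, 350.3, 350.3 and 349 CPM (15.5-fold, adjusted p = 2.41e-07), and Spink5, which encodes the kallikrein inhibitor LEKTI, rose 1.9-fold (adjusted p = 0.00308). The other 7 tested members, among them 2 kallikreins and 3 serpins, were not called.

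**Figure D3:**
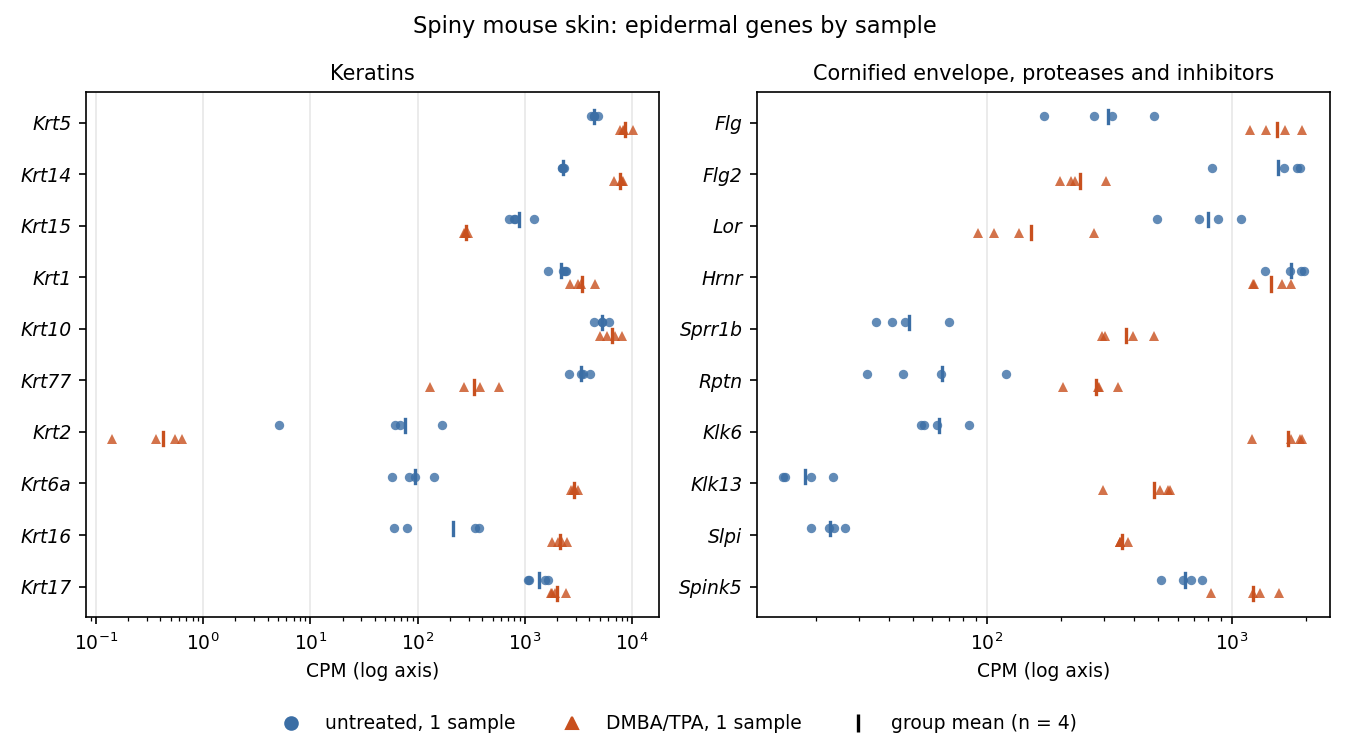
CPM (log axis) by sample for 10 keratins and 10 genes of the cornified envelope and its proteases and inhibitors, with untreated samples as circles, treated samples as triangles and means (n = 4) as bars. Krt6a, Krt16, Klk6, Klk13 and Slpi lie to the right in all treated samples, whereas Krt2, Krt77, Krt15, Lor and Flg2 lie to the left.

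Antimicrobial proteins and alarmins had 8 of 13 tested members higher, 3 lower and a median of 1.86, which was 0.95 without treated replicate 3. S100a8, the partner of S100a9 in calprotectin, read 88.9, 59.7, 74 and 63.4 CPM untreated and 1857, 1804, 1496 and 1569 CPM treated (23.5-fold, adjusted p = 2.01e-06). Pglyrp1, a peptidoglycan-binding protein of neutrophil granules, rose from 0.696 ± 0.0866 to 13.1 ± 2.19 CPM (adjusted p = 3.54e-06). Lcn2, the siderophore-binding lipocalin, read 3.13, 3.21, 2.69 and 2.88 CPM untreated and 12.2, 14, 27 and 12.2 CPM treated (adjusted p = 0.000104), so the rise was present in every treated sample and was highest in replicate 3. Defb14, an epithelial beta-defensin, rose from 2.1 ± 1.15 to 11.5 ± 4.72 CPM (adjusted p = 0.000831). Lpo, a secreted peroxidase, fell from 25.5 ± 5.66 to 9.28 ± 1.09 CPM (adjusted p = 0.000153). Defb3, Defb4, Reg3a and Saa1 were listed at 0 in all 8 samples, and of these the exons of Defb3 and Defb4 overlap each other and those of Saa1 overlap Saa2, where pairs may go uncounted.

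Of 17 tested ligands, receptors and regulators of the IL-6, IL-10, IL-17 and IL-20 families 12 rose and 3 fell, with a median of 1.06. Il6 read 1.16, 1.43, 1.29 and 2.06 CPM untreated and 27.6, 35.7, 20.4 and 39.7 CPM treated (21-fold, adjusted p = 8.52e-06). Osm, which encodes oncostatin M, a product of myeloid and T cells, read 0.340, 0.555, 0.681 and 0.777 CPM untreated and 20.9, 22.1, 10.8 and 22.5 CPM treated (32.6-fold, adjusted p = 9.9e-06). Lif, a relative of both, rose from 3.6 ± 0.413 to 28.6 ± 11.1 CPM (adjusted p = 4.54e-05). These 3 gp130 ligands were low in each untreated sample and higher in each treated one, which for Osm its selection required. Il19, in the same subfamily as Il24, was at 0.510, 0.0397, 0.170 and 0.183 CPM untreated and 4.23, 9.4, 5.56 and 9.41 CPM treated. Its log2 fold change was 4.91 (adjusted p = 8.01e-05), which became 5.71 without untreated replicate 1. Untreated replicate 2 was below the level of 3 read pairs, and untreated replicates 3 and 4 were near it. The size of this fold change is therefore unreliable. Il6st, which encodes gp130 itself, rose only 1.43-fold (adjusted p = 0.00073), and Il20ra, a receptor chain for IL-19, IL-20 and IL-24, fell 1.95-fold (adjusted p = 0.00209). Socs3, the feedback inhibitor induced through STAT3, read 25.6, 24.8, 19.7 and 25.2 CPM untreated and 128, 135, 139.8 and 229 CPM treated (6.63-fold, adjusted p = 1.6e-05). Replicate 4 was the highest treated sample for 10 of the 15 called genes of this list.

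Of 11 tested members of the IL-1 family 4 rose and 4 fell (median -0.21), near the shares over all genes, and Il36a, Il36b and Il36g are not in the table. Il1b, mainly a product of myeloid cells, read 5.0, 3.13, 7.83 and 5.26 CPM untreated and 94, 98.8, 106 and 63.4 CPM treated (17-fold, adjusted p = 1.23e-05). The keratinocyte cytokine Il1a was at 15.1 ± 2.81 and 13 ± 3.03 CPM and was not called (adjusted p = 0.365). The receptor antagonist Il1rn rose 4.39-fold (adjusted p = 2e-05) and the nuclear alarmin Il33 rose 2.3-fold (adjusted p = 0.00186). Il18, which keratinocytes store as a precursor, fell from 152 ± 28.1 to 62 ± 13.6 CPM (adjusted p = 0.000324; its exons overlap those of Tex12). Il1f10, which encodes IL-38, an epidermal member with inhibitory activity, fell 4.17-fold (adjusted p = 0.000688).

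Chemokines that attract neutrophils had 7 of 8 tested members higher, 0 lower and the highest median of the pathway lists, 3.88. Cxcl2 read 2.11, 1.59, 4.19 and 1.37 CPM in the untreated and 48.3, 55.3, 89.3 and 64.9 CPM in the treated samples (27.4-fold, adjusted p = 1.99e-05). Its close relative Cxcl1 was at 2.42, 2.18, 1.77 and 2.38 CPM untreated and 4.28, 3.75, 7.94 and 4.16 CPM treated (2.31-fold, adjusted p = 0.0035). The fold change of Cxcl1 was thus far below that of Cxcl2. Cxcl5 rose from 8.42 ± 1.75 to 37.7 ± 6.03 CPM (adjusted p = 2.04e-05) and Ccl3 from 0.737 ± 0.289 to 13.2 ± 3.28 CPM (adjusted p = 1.36e-05). The receptor Cxcr2, carried mainly by neutrophils, rose from 0.781 ± 0.265 to 14.9 ± 2.11 CPM (adjusted p = 7.04e-06).

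Chemokines and receptors of T cells, monocytes and dendritic cells had 12 of 17 members higher and 4 lower (median 1.37). Ccl8, a monocyte attractant that macrophages of skin make in quantity, read 116, 146, 165 and 142 CPM untreated and 973, 795, 635 and 1202 CPM treated (6.34-fold, adjusted p = 2e-05). Ccl7, a ligand of Ccr2, rose 6.06-fold (adjusted p = 7.01e-05), and Ccr2 itself rose 3.17-fold (adjusted p = 4.44e-05). Ccl5 rose from 1.45 ± 0.288 to 7.08 ± 4.59 CPM (adjusted p = 0.00309), as did Cxcr3, the receptor on activated T cells, from 1.3 ± 0.210 to 7.54 ± 3.85 CPM (adjusted p = 0.000671). Cxcl14, made constitutively by epithelium, read 303, 310.0, 329.5 and 236 CPM untreated and 87.3, 103, 124 and 96.5 CPM treated, 2.87-fold lower (adjusted p = 3.63e-05). The count of lower genes came to 2 without untreated replicate 2 and 1 without untreated replicate 3 or 4 or treated replicate 1, 2 or 4. Ccl19 and Ccl27a were listed at 0 in all 8 samples, and their exons overlap those of Gm12407 and of Ccl27b, respectively.

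Markers of neutrophils moved with these chemokines. Of 14 tested markers 12 rose and 1 fell (median 2.88), and their summed level was 149 to 205 CPM in untreated and 2591 to 2845 CPM in treated skin. Most of the treated sum came from S100a8 at 1681 ± 176 CPM and S100a9 at 649 ± 37.8 CPM, which keratinocytes also make. Csf3r, the receptor for G-CSF, read 6.7, 5.08, 8.95 and 9.0 CPM untreated and 38.7, 42.6, 40.7 and 52.2 CPM treated (5.85-fold, adjusted p = 1.69e-05), and Fpr1, a receptor for formylated peptides, rose from 0.144 ± 0.0791 to 5.48 ± 1.92 CPM (adjusted p = 2.39e-05). Each of these receptors was higher in every treated sample than in any untreated sample. Ltf, a granule protein that glands also secrete, rose from 4.81 ± 0.351 to 17.4 ± 16.2 CPM (log2 fold change 1.86, adjusted p = 0.0127), which became 0.95 without treated replicate 3. Without treated replicate 4 the list's median was 2.42, and the single lower call was lost without untreated replicate 1 or 4 or treated replicate 1, 2 or 4. Retnlg, whose exons overlap those of Retnla, was listed at 0 in all 8 samples. The part of these cells in the changes of cytokines and chemokines was not tested.

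Macrophage and monocyte markers had 7 of 18 higher and 2 lower (median 0.39), with summed levels of 759 to 838 CPM untreated and 1255 to 1957 CPM treated. Cd163, the scavenger receptor for haemoglobin, read 32.4, 35.5, 40.5 and 39.6 CPM untreated and 264, 178, 193 and 415 CPM treated (7.09-fold, adjusted p = 4.51e-05). Mrc1, the mannose receptor, rose 2.9-fold (adjusted p = 0.000119). The lineage marker Csf1r was at 189.6 ± 10.6 and 216 ± 30.6 CPM and was not called (adjusted p = 0.141). Arg1, which keratinocytes also express, fell from 104 ± 22.1 to 17.7 ± 12.1 CPM (adjusted p = 0.000708), and Nos2 fell from 1.77 ± 0.429 to 0.464 ± 0.185 CPM (adjusted p = 0.000633). Both arginine-consuming enzymes were thus lower while scavenger receptors were higher. Without untreated replicate 2 the list's median was 0.55.

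T and NK cell markers had 15 of 21 tested members higher and 0 lower (median 1.34), with summed levels of 70.1 to 109 CPM untreated and 120.0 to 241 CPM treated. Cd4 rose from 6.31 ± 0.937 to 19.3 ± 1.78 CPM (adjusted p = 2.05e-05). Cd8a read 2.79, 2.86, 4.9 and 3.11 CPM untreated and 3.78, 10.9, 20.7 and 9.82 CPM treated (3.31-fold, adjusted p = 0.00886), and its groups overlapped. Eomes, a transcription factor of cytotoxic cells, read 0.272, 0.198, 0.272 and 0.777 CPM untreated and 0.773, 2.64, 8.67 and 3.56 CPM treated (log2 fold change 3.41, adjusted p = 0.00359), which became 2.65 without treated replicate 3. Treated replicate 1 was the lowest treated sample for 12 of the 15 called markers and replicate 3 the highest for 11. Ctla4, an inhibitory receptor, rose 6.05-fold (adjusted p = 8.7e-05), and Foxp3, the factor of regulatory T cells, rose 1.74-fold (adjusted p = 0.00912; its exons overlap those of Ccdc22). The T cell receptor chain Cd3e was at 15.9 ± 4.14 and 23.2 ± 6.9 CPM and was not called (adjusted p = 0.0744), but it passed without untreated replicate 3 (0.0407) or treated replicate 1 (0.0374).

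Markers of dendritic and Langerhans cells had 3 of 15 higher and 3 lower; without treated replicate 1, 7 were higher and 1 lower, and without treated replicate 2, 1 was lower. Their median was 0.36, and 0.16 without treated replicate 3. The Langerhans cell lectin Cd207 was at 4.81 ± 1.38 and 3.23 ± 0.265 CPM, lower at an adjusted p of 0.0396 that exceeded 0.05 when any of 6 samples was left out (0.0552 to 0.107) and with limma-voom (0.0526), and its exons overlap those of Clec4f. Epcam, which Langerhans cells share with hair follicle epithelium, fell 1.62-fold (adjusted p = 0.000227). Mast cell markers had 4 of 8 higher and 1 lower (2 without treated replicate 2, and 0 without untreated replicate 3 or 4 or treated replicate 1, 3 or 4), with Hdc, the enzyme that makes histamine, rising from 18.2 ± 4.82 to 50.7 ± 10.2 CPM (adjusted p = 0.000501).

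**Figure D4:**
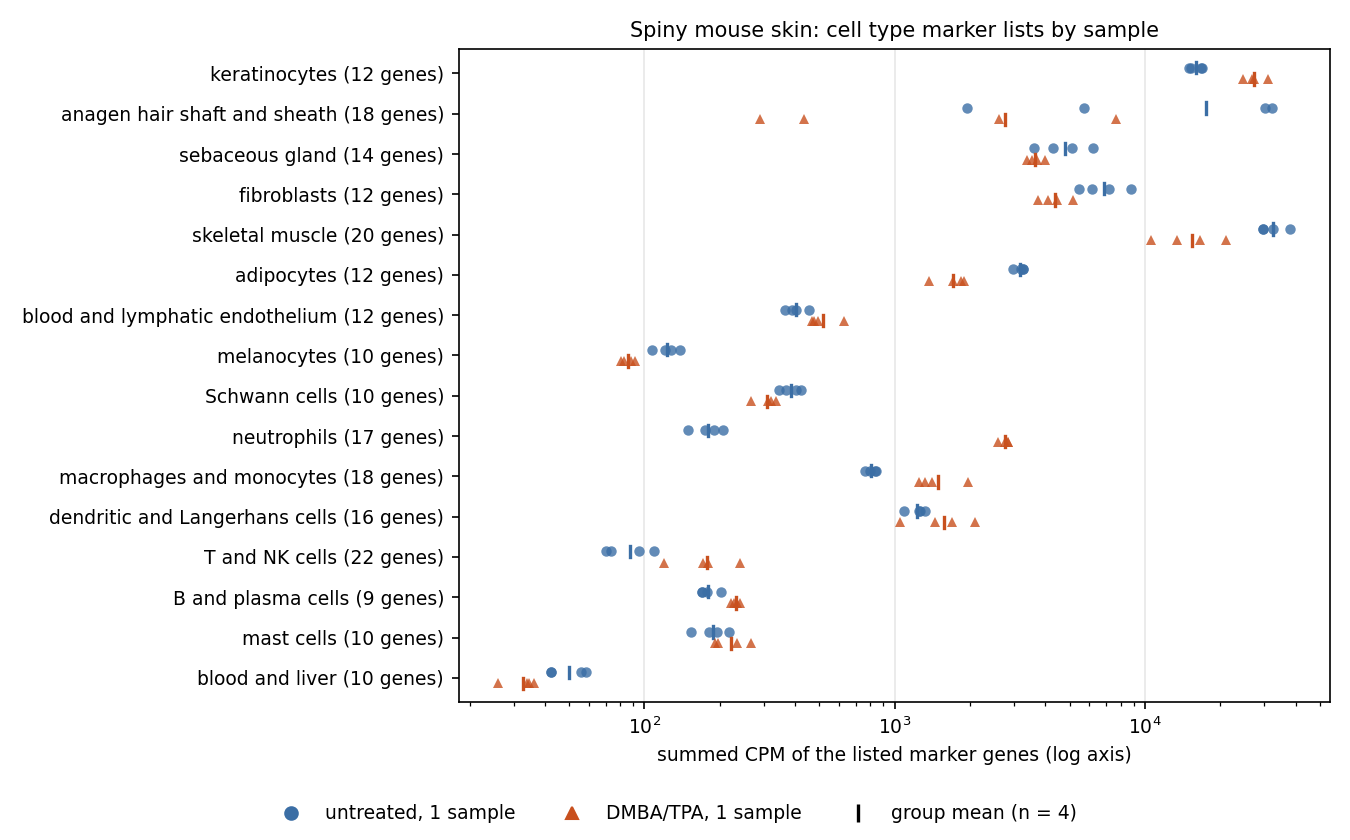
Summed CPM (log axis) of each list of cell type markers in each untreated sample (circles) and treated sample (triangles), with group means (n = 4) as bars. The neutrophil sum is 149 to 205 CPM untreated and 2591 to 2845 CPM treated, and the anagen hair sum spreads most within groups.

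Interferon-stimulated genes had 19 of 23 tested members higher and 0 lower, with a median of 1.05. Irgm1, an interferon-gamma-inducible GTPase, read 5.21, 4.64, 5.89 and 4.25 CPM untreated and 10.6, 62.8, 86.1 and 37.8 CPM treated (9.85-fold, adjusted p = 0.00084). Iigp1, of the same GTPase class, read 22.7, 21.4, 26.4 and 22.9 CPM untreated and 53.6, 181, 271 and 146 CPM treated (6.98-fold, adjusted p = 0.000429). For both Irgm1 and Iigp1 replicate 1 was the lowest treated sample and still exceeded each untreated sample. Over the 19 called genes of the list, replicate 1 was the lowest treated sample for 17 and replicate 3 the highest for 17. Igtp rose 3.35-fold (adjusted p = 0.00834) and Isg15, a ubiquitin-like modifier, 2.16-fold (adjusted p = 0.018), both with groups that overlapped. Irf7 rose 2.27-fold (adjusted p = 1.3e-05).

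Listed genes of antigen presentation on MHC class I rose with the same order of samples. Of 11 tested genes 9 rose and 0 fell (median 0.83). The list holds no class I heavy chain gene, and H2-M5, a non-classical class I gene, was among the largest falls. Psmb8, an immunoproteasome subunit, read 44.2, 63, 66.4 and 51.9 CPM untreated and 112, 182, 229 and 164 CPM treated (3.05-fold, adjusted p = 0.000266), and the light chain gene B2m read 425, 434, 569.9 and 445 CPM untreated and 555, 943, 974 and 857 CPM treated (1.78-fold, adjusted p = 0.00381) with groups that overlapped. Calr, a chaperone of class I assembly, rose 1.91-fold (adjusted p = 6.22e-05). Replicate 1 was the lowest treated sample for 7 of the 9 called genes and replicate 3 the highest for 7, as for T and NK markers, and whether the marker level accounts for the order was not tested.

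**Figure D5:**
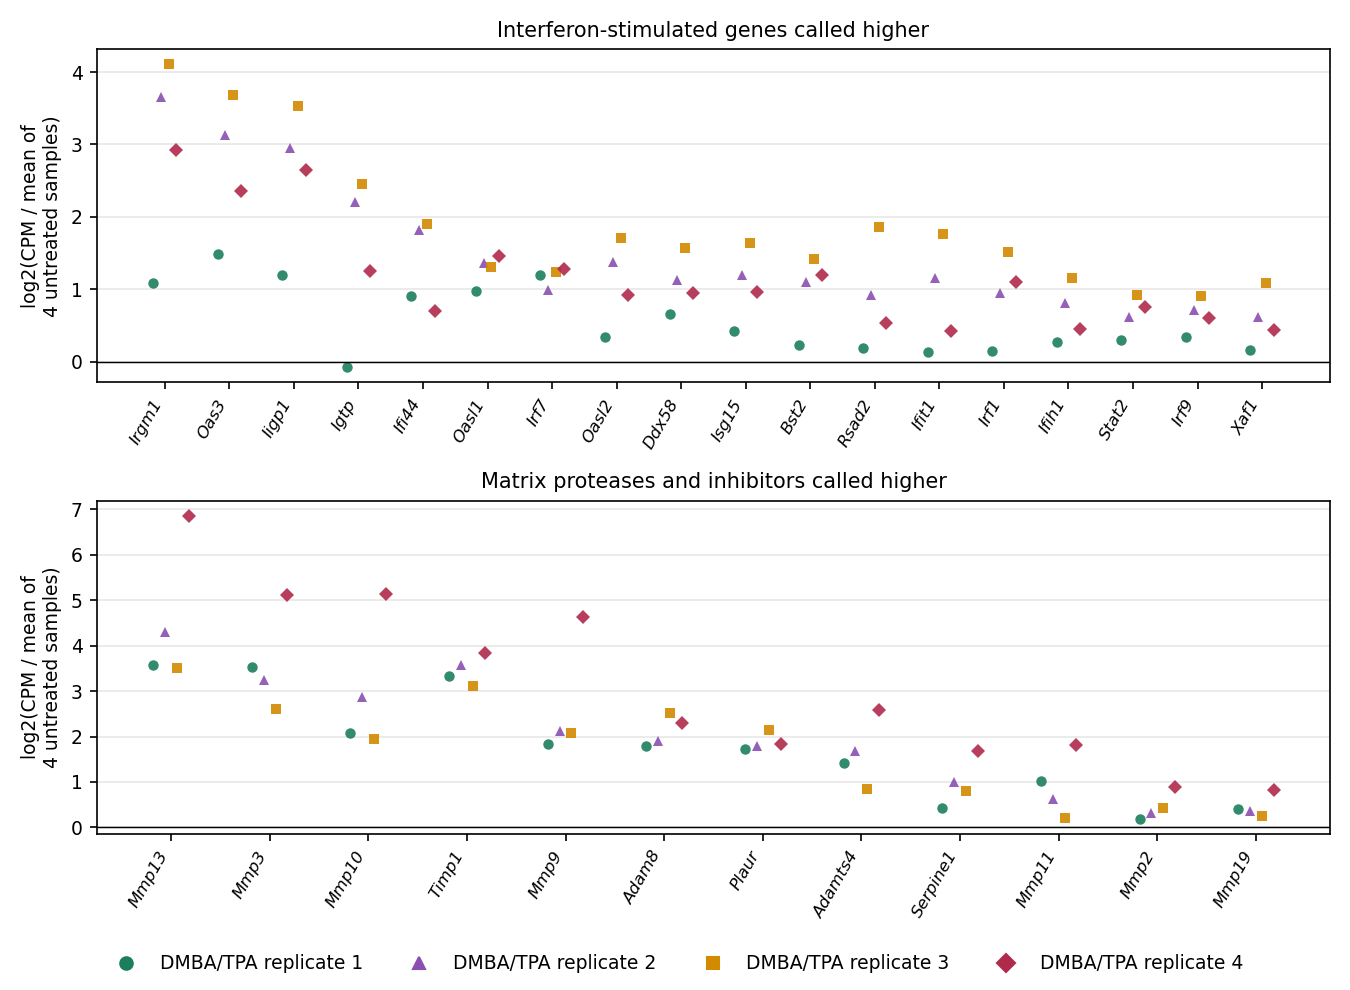
Log2 of CPM over the mean of the 4 untreated samples (vertical axis) in each treated replicate, for the interferon-stimulated genes that rose (all but 1 drawn) and the matrix proteases and inhibitors that rose. Replicate 3 is highest for 17 of all 19 such interferon-stimulated genes and replicate 1 is lowest for 17, whereas replicate 4 is highest for 10 of 12 protease and inhibitor genes.

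Proliferation genes rose together. All 29 tested genes of the cell cycle list rose, with a median of 1.38. Mki67, the proliferation antigen, read 103, 81, 79.95 and 77.3 CPM untreated and 336, 236, 256 and 236 CPM treated (3.12-fold, adjusted p = 2.99e-05). Ccnb1, the mitotic cyclin, rose from 17.3 ± 1.85 to 69.2 ± 11.3 CPM (adjusted p = 1.05e-05), and its kinase Cdk1 rose 3.64-fold (adjusted p = 1.46e-05). Rrm2, the inducible subunit of ribonucleotide reductase, rose 3.86-fold (adjusted p = 8.32e-06), Ccnd1, which encodes cyclin D1, 2.23-fold (adjusted p = 0.000167) and Pcna, the sliding clamp of DNA polymerase, 1.54-fold (adjusted p = 0.000121). Replicate 1 was the highest treated sample for 28 of the 29 genes, the sample that was lowest for most interferon-stimulated genes.

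Targets of p53 and inhibitors of the cell cycle had 4 of 20 higher and 6 lower, near the shares over all genes (28.2% and 26.9%). Their median was -0.04 (0.04 without untreated replicate 2). The p21 gene Cdkn1a was at 159, 173, 122 and 120.5 CPM untreated and 127, 127, 138 and 142 CPM treated and was not called (log2 fold change -0.10, SE 0.12, adjusted p = 0.487). Mdm2, the ubiquitin ligase of p53 and its target, rose 1.16-fold (adjusted p = 0.0104), and Ccng1, another target, fell 1.54-fold (adjusted p = 0.000236). Pmaip1, which encodes the pro-apoptotic protein NOXA, rose from 11.9 ± 3.02 to 40.9 ± 5.73 CPM (adjusted p = 7.15e-05). Cdkn2a, the locus of p16 and p19Arf, was at 2.06 ± 0.510 and 2.62 ± 0.425 CPM and was not called (adjusted p = 0.211), while Cdkn1c, which encodes p57, fell 1.91-fold (adjusted p = 0.00162).

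Several ligands of the EGF receptor rose, and none of the 4 receptor genes did. The list had 7 of 15 members higher and 4 lower (median 0.17). Hbegf, the heparin-binding ligand, read 8.95, 9.52, 7.52 and 6.58 CPM untreated and 38.1, 36.5, 36.4 and 48.9 CPM treated (4.9-fold, adjusted p = 9.94e-06). Tgfa rose 1.95-fold (adjusted p = 0.000325), Areg, which encodes amphiregulin, 2.46-fold (adjusted p = 0.000242), and Nrg1, a ligand of ErbB3 and ErbB4, 3.63-fold (adjusted p = 0.00214; its exons overlap those of Gm3985). Btc, which encodes betacellulin, fell 1.75-fold (adjusted p = 0.0041). Egfr itself fell from 173 ± 21 to 131 ± 13.3 CPM (adjusted p = 0.00834).

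Downstream, 11 of 26 genes of Ras signalling, MAPK feedback and AP-1 rose and 5 fell (median 0.21). Hras, the usual target of DMBA mutations in laboratory mouse skin, was at 118 ± 6.67 and 129 ± 5.4 CPM and was not called (adjusted p = 0.109); counts per gene do not show sequence changes. Phlda1 rose 3.41-fold (adjusted p = 6.39e-05). Of the AP-1 subunits, Junb rose from 123 ± 25.2 to 276 ± 9.46 CPM (adjusted p = 0.000121) and Fosl2 from 335 ± 22.6 to 456 ± 39.6 CPM (adjusted p = 0.00218), while Fos was at 49.4 ± 11.8 and 57.9 ± 12.6 CPM and was not called (adjusted p = 0.337). Atf3, a stress-induced relative, fell 1.8-fold (adjusted p = 0.00329). Replicate 4 was the highest treated sample for 10 of the 16 called genes of this list.

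The cytochromes that convert DMBA were not called higher. Genes of the aryl hydrocarbon receptor and xenobiotic metabolism had 4 of 17 tested members higher and 7 lower (median -0.09). Cyp1a1, the classic target of the receptor, read 47.2, 38.3, 69.6 and 45.9 CPM untreated and 42.5, 35.6, 36.2 and 44.3 CPM treated and was not called (adjusted p = 0.117), though it was lower at 0.0417 without untreated replicate 2. Cyp1b1, the enzyme most tied to activation of DMBA in skin, read 77.9, 72.2, 68.5 and 65.3 CPM untreated and 43.7, 39.8, 51.9 and 52.5 CPM treated, 1.51-fold lower (adjusted p = 0.00108). Ahr fell 1.39-fold (adjusted p = 0.0177), whereas Tiparp, a further target that inhibits the receptor, rose 2.1-fold (adjusted p = 1.77e-05). Akr1b8, an aldose reductase whose exons overlap those of Akr1b10, rose from 3.15 ± 0.294 to 28.9 ± 6.05 CPM (adjusted p = 6.05e-06). Gstm5, of a glutathione transferase family with near-identical copies, fell 2.66-fold (adjusted p = 0.000242).

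The antioxidant genes under NRF2 had 8 of 19 members higher and 3 lower, with a median of 0.19 that was 0.31 without treated replicate 3. Txn1, which encodes thioredoxin, read 212, 201, 178 and 169 CPM untreated and 829.7, 796, 544 and 742 CPM treated (3.83-fold, adjusted p = 1.76e-05). Fth1, the ferritin heavy chain, rose 1.48-fold (adjusted p = 0.00384), and Nfe2l2, which encodes NRF2, rose 1.5-fold (adjusted p = 0.000214). G6pdx, the entry enzyme of the pentose phosphate pathway, fell 1.43-fold (adjusted p = 0.000218; its exons overlap those of Ikbkg).

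Arachidonate and polyamine enzymes, long studied as targets of TPA in mouse epidermis, had 10 of 23 members higher and 4 lower (median 0.31); without treated replicate 2, 2 were lower, and without untreated replicate 1 the median was 0.20. Ptgs2, which encodes cyclooxygenase-2, read 9.53, 9.2, 13.3 and 11.2 CPM untreated and 104, 117, 87.9 and 122 CPM treated (9.97-fold, SE of the log2 fold change 0.15, adjusted p = 3.54e-06). Pla2g4e, a cytosolic phospholipase, rose 4.57-fold (adjusted p = 3.22e-05), and the prostaglandin E2 receptor Ptger2 rose from 3.24 ± 0.273 to 17 ± 3.05 CPM (adjusted p = 8.84e-06). The prostaglandin-degrading enzyme Hpgd rose as well, from 35.6 ± 5.74 to 171 ± 36.4 CPM (adjusted p = 2.02e-05). Odc1, ornithine decarboxylase, read 109, 138, 76.6 and 113 CPM untreated and 72.2, 74.9, 76.7 and 75.9 CPM treated, lower by 1.46-fold with overlapping groups (adjusted p = 0.0121). Alox8, the lipoxygenase induced by phorbol ester in mouse skin, was at 40.9, 33, 4.22 and 13.9 CPM untreated and 1.68, 1.11, 8.97 and 4.93 CPM treated, lower at an adjusted p of 0.0234 that was lost without untreated replicate 1 (0.0614) or 2 (0.0558) or treated replicate 1 (0.0598) or 2 (0.0509) and with limma-voom (0.0683), and its log2 fold change moved from -2.46 to -3.18 without treated replicate 3. Alox15 and Amd1 were listed at 0 in all 8 samples, but their exons overlap those of Alox12e and Amd2, so that read pairs may have gone uncounted.

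The main fibrillar collagens fell while tenascin-C rose. Of 26 genes of the matrix list 4 rose and 10 fell (median -0.28). Col3a1 read 2274, 3029.9, 1661 and 1838 CPM untreated and 733, 812, 669 and 899 CPM treated (2.83-fold lower, adjusted p = 0.000229), and Col1a1 read 1589, 1919.5, 1059.6 and 1254 CPM untreated and 559.6, 606, 444 and 826 CPM treated (2.39-fold lower, adjusted p = 0.00148). Both fibrillar collagens were lower in each treated sample than in any untreated sample. Tnc, which encodes tenascin-C, read 82, 42.1, 41.9 and 54.3 CPM untreated and 318, 365, 241 and 651 CPM treated (7.15-fold higher, adjusted p = 0.000158). Has3, a hyaluronan synthase of keratinocytes, rose 6.87-fold (adjusted p = 3.84e-05), and Col12a1, a fibril-associated collagen, rose 1.76-fold (adjusted p = 0.00515). Fibroblast markers had 2 of 12 higher and 5 lower, with sums of 5470.1 to 8767 CPM untreated and 3734 to 5133 CPM treated, but collagens are part of that list, and Thy1, a surface marker that T cells also carry in mice, rose 3.19-fold (adjusted p = 1.67e-05).

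Proteases that degrade matrix and their inhibitors had 12 of 19 tested members higher and 0 lower, with a median of 1.04 that was 0.67 without treated replicate 4. Mmp13, the collagenase, read 6.12, 1.59, 5.51 and 3.34 CPM untreated and 49.2, 82, 46.8 and 479 CPM treated (log2 fold change 5.29, SE 0.91, adjusted p = 0.00114). Mmp9, the gelatinase of neutrophils and wound keratinocytes, read 9.9, 14, 20.2 and 11.7 CPM untreated and 50.04, 61, 58.4 and 344 CPM treated (log2 fold change 3.20, adjusted p = 0.00312). Mmp3 and Mmp10, both stromelysins, had log2 fold changes of 3.93 (adjusted p = 0.000364) and 3.66 (adjusted p = 0.00317). Treated replicate 4 was the highest for each of these 4 genes, and without it their log2 fold changes were 3.84 for Mmp13, 2.03 for Mmp9, 3.17 for Mmp3 and 2.37 for Mmp10. All 4 remained higher at an adjusted p of 0.000406 or less without it. Timp1, the inhibitor, read 16.3, 16.3, 15.6 and 13.5 CPM untreated and 154, 183, 134 and 221 CPM treated (11.2-fold, adjusted p = 3.54e-06), and Plaur, the urokinase receptor, rose 3.69-fold (adjusted p = 2.52e-05).

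Genes of TGF-beta signalling and myofibroblasts had 6 of 19 higher and 7 lower (median -0.05). Tgfb1 rose from 58.2 ± 4.34 to 114 ± 17.7 CPM (adjusted p = 0.000124) while Tgfb2 fell from 36 ± 2.37 to 19.5 ± 2.27 CPM (adjusted p = 9.21e-05). The contractile genes Acta2 and Cnn1 fell 1.51-fold (adjusted p = 0.00281) and 2.76-fold (adjusted p = 0.000253). Contact genes of the basal layer and wound edge had 8 of 15 higher and 1 lower (median 0.51). Among them the laminin-binding integrin Itga3 rose 2.1-fold (adjusted p = 0.000153) and its partner Itgb1 1.98-fold (adjusted p = 6.33e-05). Trem1, a myeloid receptor, had a log2 fold change of 4.31 (adjusted p = 3.76e-05), and Dst, the plakin of hemidesmosomes, fell 1.55-fold (adjusted p = 0.00749); the exons of Trem1 and Dst overlap in this annotation.

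Hair follicle signalling was lower. Of 23 tested genes of Wnt, hedgehog and hair follicle stem cells 16 fell and 2 rose (median -0.95). Shh, the hedgehog ligand of the growing follicle, read 7.52, 14.6, 1.6 and 6.4 CPM untreated and 0.318, 0.179, 0.586 and 0.548 CPM treated (log2 fold change -4.20, adjusted p = 0.000767). The hedgehog targets Gli1 and Ptch1 fell 3.21-fold (adjusted p = 9.07e-05) and 1.94-fold (adjusted p = 3.91e-05), and the exons of Gli1 overlap those of Arhgap9. Wnt10b, a ligand at the onset of hair growth, fell 3.79-fold (adjusted p = 0.000172; its exons overlap those of LOC115488470), and the stem cell receptor Lgr6 fell 1.98-fold (adjusted p = 0.00225). Sfrp1, an inhibitor of Wnt, rose from 158 ± 22.1 to 313 ± 28.1 CPM (adjusted p = 0.000101). Replicate 3 was the highest treated sample for 14 of the 18 called genes of this list.

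Transcripts that mark the growth phase of the hair, anagen, differed widely in level within groups, and the source of this spread was not tested. Summed levels of the anagen hair shaft and sheath markers were 32079.6, 30224, 1945 and 5709 CPM in untreated replicates 1 to 4 and 434, 289, 7689.6 and 2605 CPM in treated replicates 1 to 4. Untreated replicate 3 was thus below treated replicates 3 and 4. Of 18 tested markers 0 rose and 4 fell, with a median of -2.40, but the number that fell ranged from 0 without untreated replicate 2 to 18 without treated replicate 3, and was 2 without untreated replicate 1, 1 without treated replicate 1 and 11 without untreated replicate 3. Krt86, a hair shaft keratin, read 6205, 4000.1, 149 and 325 CPM untreated and 43.8, 18.4, 1180.2 and 254 CPM treated and was not called (adjusted p = 0.124), passing without treated replicate 3 (0.0322). Krt27, an inner root sheath keratin, had a log2 fold change of -2.42 (adjusted p = 0.0682), passing without untreated replicate 3 (0.0412) or treated replicate 3 (0.0168, log2 fold change -3.61), with DESeq2's Wald test (0.0334) and with limma-voom (0.04). Treated replicate 3 thus had the highest treated level both of the anagen markers and of most called Wnt and hedgehog list genes. The part of the hair cycle in the falls of Shh and the Wnt genes was not tested.

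Skeletal muscle transcripts were lower in treated skin, with 18 of 19 tested markers lower and 0 higher (median -1.15). Together the markers made up 3.24% of counts in untreated and 1.54% in treated skin, and their sums were 29577 to 38021 CPM and 10524 to 21013 CPM. Atp2a1 read 7387, 8135, 7819.6 and 9455 CPM untreated and 2564, 5353, 3698 and 3208 CPM treated (2.21-fold lower, adjusted p = 0.00176), Acta1 fell 2.11-fold (adjusted p = 0.00252) and Casq1, the calcium buffer of fast fibres, 3.22-fold (adjusted p = 0.000189). Des, the muscle intermediate filament, was at 869.6 ± 90.1 and 634 ± 232 CPM and was not called (adjusted p = 0.139). Replicate 1, which was lowest of the treated samples for 17 of 18 called muscle markers, was highest for the cell cycle genes. The effect of the muscle share on other genes was not tested here.

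Adipocyte markers had 8 of 12 members lower and 0 higher (median -0.60), among them Lep, which encodes leptin, at 403, 395, 416 and 378 CPM untreated and 117, 128, 45.9 and 76.7 CPM treated (4.32-fold lower, adjusted p = 0.000257), and the lipase Lpl, 2.63-fold lower (adjusted p = 0.000115). Sebaceous gland markers had 4 of 13 lower and 0 higher, and 8 lower without untreated replicate 2. The desaturase Scd1 fell 2.74-fold (adjusted p = 0.000712) and Fads2 5.27-fold (adjusted p = 0.00418), while Soat1 was not called (adjusted p = 0.0883) and passed without untreated replicate 2 (0.016). Melanocyte markers had 2 of 8 lower (5 without untreated replicate 3 and 1 without untreated replicate 4) and Schwann cell markers 6 of 10 (3 without treated replicate 2), with 0 and 0 higher. Endothelial markers had 4 of 12 higher and 2 lower, near the shares over all genes. The VEGF receptor Kdr fell 2.13-fold (adjusted p = 7.17e-05), the pan-endothelial marker Pecam1 was not called (adjusted p = 0.0857; 0.0464 without untreated replicate 4), and Pdpn, carried by lymphatic vessels, fibroblasts and basal keratinocytes, rose from 17.4 ± 2.52 to 72 ± 24.4 CPM (adjusted p = 8.67e-05).

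Keratinocyte markers, by contrast, had 8 of 12 higher and 1 lower (median 0.68), with sums of 14964 to 16927 CPM untreated and 24584 to 30954 CPM treated. The lineage factor Trp63 was at 356 ± 42.8 and 399 ± 28.7 CPM and was not called (adjusted p = 0.179; 0.0446 without untreated replicate 3), whereas the desmosomal cadherin Dsg3 rose 3.33-fold (adjusted p = 3.03e-05). Stress genes that mark RNA quality and tissue handling had 6 of 11 higher and 0 lower, with sums of 2158 to 2573 CPM untreated and 3318 to 3982 CPM treated and a median of 0.29 (0.41 without untreated replicate 2). Markers of B and plasma cells had 1 of 5 higher (2 without treated replicate 2) and 0 lower. Blood and liver markers summed to 42.1 to 58.4 CPM untreated and 26 to 36.3 CPM treated.

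Whether these changes were particular to the spiny mouse was tested as a species by treatment interaction over 13656 gene symbols measured in both species, which were matched by symbol alone and counted in separate annotations. The log2 fold change was larger in spiny mouse for 2921 symbols (21.4%) and smaller for 3369 (24.7%). This split moved with the scaling, since larger changes made up 46.4% of the differences with TMM, 36.9% with DESeq2 size factors and 66.2% with library sizes alone. Of the 12 largest rises and 12 largest falls of spiny mouse skin, Fgf23 was not tested in mouse. Those genes were chosen for their large changes in spiny mouse, and that choice favours a larger difference in the same direction, so their counts and adjusted p-values below describe them and support nothing about the species.

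Among the rises, 6 were called larger in spiny mouse. F830016B08Rik had a log2 fold change of 7.41 in spiny mouse and -1.72 in mouse, a difference of 9.13 (SE 1.02, adjusted p = 6.3e-06). Gm4841 differed by 8.07 (adjusted p = 7.72e-05; 9.11 without mouse treated replicate 2) and Gvin3 by 6.16 (adjusted p = 7.7e-05). In mouse skin Gvin3 was at 19.5 ± 5.17 CPM untreated and 9.42 ± 2.11 CPM treated, so these GTPase genes rose in spiny mouse and did not rise in mouse. Osm had a log2 fold change of 0.32 in mouse (adjusted p = 0.544) and differed by 4.70 (adjusted p = 1.01e-05). Cdhr1 rose in both species and differed by 2.41 (adjusted p = 0.00163). Mmp13 differed by 3.38 (adjusted p = 0.0429), a call that was lost in 12 alternatives, 1 of which left out spiny mouse treated replicate 4 (1.92, adjusted p = 0.171). Il24 was just outside the threshold, with a difference of 2.40 (adjusted p = 0.0506, and 0.03 to 0.2 over the alternatives). Its few untreated read pairs make the size of this difference unreliable. S100a9 and Krt6a had log2 fold changes of 6.34 and 4.89 in mouse, with differences of 0.07 (SE 0.57) and 0.03 (SE 0.38) that were not called and that changed sign with DESeq2 size factors and with single samples left out. Sprr2k and Uox had differences of 2.29 (SE 1.23) and 2.29 (SE 1.18) that were not called either.

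Among the falls, 7 were called more negative in spiny mouse. Krt2 had log2 fold changes of -7.51 in spiny mouse and -1.04 in mouse, a difference of -6.46 (SE 1.20, adjusted p = 0.000477; -5.70 without spiny mouse untreated replicate 2), but its level in mouse skin was only 3.4 ± 2.09 CPM untreated. Igfl3 fell in spiny mouse and rose in mouse, from 0.885 ± 0.361 to 5.48 ± 1.36 CPM, a difference of -5.79 (adjusted p = 9.76e-07). Serpinb13 was at 2.63 ± 0.510 and 2.59 ± 0.586 CPM in mouse and differed by -3.79 (adjusted p = 0.000476; -4.99 without spiny mouse treated replicate 3). Slc9a3 differed by -2.53 (adjusted p = 0.00158) and Sema3d by -1.44 (adjusted p = 0.00287), both with falls in each species. Fcgbp differed by -1.54 (adjusted p = 0.0491), lost in 10 alternatives with adjusted p from 0.0217 to 0.131 over all of them, and Sarm1 by -1.66 (adjusted p = 0.0239), lost in 2, of which 1 left out mouse treated replicate 1 (0.0581). The falls of Lce1m, Krt77, H2-M5, Flg2 and Igfbp3 had mouse log2 fold changes of -3.62, -4.70, -3.08, -2.92 and -2.27, and differences of -1.03, 1.39, 0.27, 0.23 and -0.39 with standard errors of 0.58, 1.01, 0.37, 0.39 and 0.38, none of them called. A missed threshold does not show that these genes changed alike in both species.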

How the data were processed

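The deposited values are counts of read pairs per gene, and per the file headers the authors made them with featureCounts 2.0.3 on the AcoCah2 assembly, keeping pairs with both ends mapped and setting no strand, multi-mapping or overlap option. The submitters' processing notes also name Trim Galore, HISAT2 and the mouse assembly GRCm39, which differs from the assembly in the header of the spiny mouse table; the header was followed here. Exons of 4030 of 19818 spiny mouse genes overlap those of another gene, where read pairs are lost or cannot be assigned. No column of per-sample values was left unused.

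Counts were tested with edgeR 4.0.16 in R 4.3.3 (filterByExpr, TMM scaling, quasi-likelihood F test, Benjamini-Hochberg adjustment, threshold 0.05), treated against untreated within the 8 spiny mouse samples. CPM and FPKM were computed from the counts with effective library sizes. The interaction with species used all 16 samples. The test was checked on simulated data. Replicates of a group differed by more than sampling noise. At 21143918 to 30561256 pairs per sample, floors of 3 counts cover counting error only. Alternatives were other scalings, DESeq2 1.42.0, limma-voom (limma 3.58.1), other count filters, a fold threshold, the replicate number as a block, and leaving out each sample.

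Genes were named by rule: the 12 largest rises and 12 largest falls (called, mean log2 CPM 3 or more, no overlap between groups), the 10 most abundant per group in FPKM, and 2 to 6 members of each list by level, size of change or role. The samples, gene lists and tests were chosen with earlier results of these data known. Genes of each list that passed the filter may have passed through 1 group only. Values of 2 listed genes are not reported here. No sequence of the spiny mouse is printed, since its genome was not used here.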

Additional observations from a re-analysis of the deposited data

Results flagged for a closer look

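In 368 groups of 4 samples (184 named genes, treated and untreated), 26 had a sample far from the other 3 by Dixon's 95% limit, or 7.07%. Chance flags about 1 in 20 groups. The sample was treated replicate 3 for 7 of the 26 and treated replicate 4 for 6.

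In treated replicate 4 the matrix proteases stood above the nearest treated sample, with Mmp13 at 479 CPM (next 82.0), Mmp9 at 344 CPM (next 61.0) and Mmp10 at 61.5 CPM (next 12.7). The same sample stood apart for Socs3 at 229 CPM, Hbegf at 48.9 CPM and Pdpn at 108.2 CPM. All of these genes were also higher in the other treated samples than in untreated skin.

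Treated replicate 3 stood above the others for Lcn2 at 27.0 CPM, Ltf at 41.6 CPM, Cxcl1 at 7.94 CPM, Serpinb13 at 11.1 CPM, Epcam at 104 CPM and G6pdx at 132 CPM, and below them for Osm at 10.8 CPM (nearest 20.9). Slpi stood apart in treated replicate 1 at 377 CPM. Among untreated samples, replicate 1 stood apart for Mki67 at 103 CPM, Tgfa at 73.8 CPM and Lpo at 17.0 CPM. Untreated replicate 2 stood apart for Rrm2 at 39.8 CPM and Dst at 505 CPM. Untreated replicate 3 stood apart for B2m at 569.9 CPM, Cd8a at 4.90 CPM, Foxp3 at 2.01 CPM, Socs3 at 19.7 CPM and Sprr3 at 0.272 CPM, and untreated replicate 4 for Lgals7 at 822 CPM and Eomes at 0.777 CPM.

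By the species by treatment interaction, 13 of the 23 largest changes that were tested in both species differed, beside 21.4% of all symbols larger and 24.7% smaller in spiny mouse. The choice of genes by their spiny mouse change favours such differences. The spiny mouse minus mouse log2 fold change was 9.13 for F830016B08Rik, 8.07 for Gm4841, 6.16 for Gvin3, 4.70 for Osm, 3.38 for Mmp13 and 2.41 for Cdhr1. It was -6.46 for Krt2, -5.79 for Igfl3, -3.79 for Serpinb13, -2.53 for Slc9a3, -1.66 for Sarm1, -1.54 for Fcgbp and -1.44 for Sema3d. The differences of Mmp13, Fcgbp and Sarm1 were called at adjusted p of 0.0429, 0.0491 and 0.0239 in edgeR's test and lost their call in some alternatives.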

How the results depend on the processing

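Beside the 4183 genes called higher and 3997 called lower, settings that changed scaling, test or filter gave 3805 to 4335 genes higher and 3945 to 4356 lower, and leaving out 1 sample gave 3718 to 4265 higher and 3507 to 3867 lower. When a log2 fold change of 1 or more was required in either direction, 1000 were higher and 1226 lower. Higher genes made up 51.1% of calls, and 46.6% with upper-quartile factors. Species differences were larger in spiny mouse for 2285 to 3078 symbols and smaller for 3031 to 4633 with 1 sample left out, 4305 and 2201 with library sizes alone, and 2422 and 4139 with DESeq2 size factors. The cause was not tested.

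Same-numbered samples had correlations of deviations from their group means of -0.526 to -0.195, and differently numbered samples -0.525 to 0.528. Since each mean comes from the same 4 samples, these values cannot settle whether the replicate numbers pair the samples. In the fit with a replicate block, 3866 genes were higher and 3552 lower, 7273 of them also called without it, and 2590 species differences were larger and 3133 smaller. Krt1 missed the threshold only with the block (adjusted p = 0.058), and Krt17 (0.057), Cd207 (0.0909) and Alox8 (0.125) missed it there and under other settings. Uncalled genes that passed were Cd3e (0.0139) and Pecam1 (0.0214) with the block, and Cd3e (0.04), Soat1 (0.0385) and Krt27 (0.0334) with DESeq2's Wald test. Krt27 also passed with limma-voom (0.04).

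Among named genes, Elovl4 (-0.08) ranged from -0.21 to 0.13 with 1 sample left out, positive only without untreated replicate 3. Among species differences that were not called, S100a9 was -0.0451 with DESeq2 size factors and -0.0318 with the block, and -0.15 to 0.32 with 1 sample left out. Krt6a was -0.0718 with DESeq2 size factors and -0.26 to 0.29 with 1 sample left out, Uox was -0.69 to 2.65 and Flg2 -0.0016 to 0.37, the lowest without mouse untreated replicates 1 and 4, respectively. A covariate for sex was not run, because Uty had 0 to 2 counts per sample and Xist is not listed. A group at or near 3 counts per sample, 0.102 to 0.137 CPM, gives no reliable fold change.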
